A study of Mus musculus with 6 samples.

Results

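The immediate early response genes were followed across luminal epithelium and blastocysts from control females and from females labelled as *Lif* eKO, with and without recombinant Lif. The 10 genes were *Fos*, *Fosb*, *Fosl2*, *Jun*, *Junb*, *Egr1*, *Atf3*, *Ier2*, *Ier3* and *Ier5*, taken by gene symbol from the 23420 genes of each count table. All 10 were listed in both tables, and all 10 reached 10 counts summed over the 3 libraries in each tissue, the minimum used here. In the same way 15694 of all genes were tested in the luminal libraries and 14873 in the blastocyst libraries.

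Leukemia inhibitory factor (Lif) is a cytokine of the interleukin 6 family that the mouse uterus needs for embryo attachment, and the libraries address how its loss and its replacement change the epithelium and the embryo. The luminal control was uterine luminal layer of *Lif*-floxed/floxed females given PBS. The *Lif* eKO library came from *Lif*-floxed/floxed *Ltf*-Cre/+ females given PBS, in which the lactoferrin-driven recombinase acts in the uterine epithelium, and the third library from females of the same genotype given recombinant Lif (rLif). The rLif females received 20 µg per head by intraperitoneal injection at 10 am and 6 pm on day 4 of pregnancy, and all tissue was taken at 8 pm of that day, 2 h after the last injection. The blastocysts were flushed from control, *Lif* eKO and rLif-treated *Lif* eKO uteri at the same hour, and all 3 embryo groups carried the label *Lif*-floxed/+. Every group was 1 library, made from pooled laser-dissected samples or pooled blastocysts. No difference between groups therefore has a replicate check, and the intervals given below cover counting error only.

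Immediate early genes are transcribed within minutes of a stimulus, without new protein synthesis, and their transcripts and proteins are short-lived. Several encode the Fos and Jun proteins, which pair through leucine zippers to form the transcription factor AP-1, and others encode zinc finger factors or small regulators of survival and growth. Cytokines of the Lif type act through the receptor chains Lifr and gp130, which activate Stat3 and the mitogen-activated protein kinases, and *Junb* and *Fos* are long-known transcripts of such cytokine responses.

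The luminal libraries held 23850565 to 28460465 counts and the blastocyst libraries 18996158 to 19638852. Values are given as CPM, the counts of a gene relative to the library size scaled by the trimmed mean of M-values (TMM), and comparisons between genes as TPM, which also divides by exon length. *Lif* itself was counted 28 times in the luminal layer labelled eKO, and 0 times under the labels control and eKO with rLif. This goes against the label of the eKO library. A count over the whole gene can include exons outside the deleted part, in the control as in the eKO library. Why the eKO library held the most counts was not tested. A count of 0 does not show that a transcript was absent, and was set at 3 counts where a limit was needed. Because of these *Lif* counts the luminal libraries are named by their labels. All 8 uterine epithelial markers were detected in every luminal library, at a summed 11527, 13183 and 11184 CPM in the order control, eKO and eKO with rLif. Of the 6 inner cell mass markers 1, 2 and 1 were detected there, at a sum of 0.32, 0.80 and 0.08 CPM. *Pou5f1*, *Nanog* and *Fgf4* were at 0 in all luminal libraries. In the blastocysts all 6 inner cell mass and all 6 trophectoderm markers were detected in each library. All 8 epithelial markers were detected there too, at 7852, 8176 and 7807 CPM. Primitive endoderm markers summed to 1109, 1743 and 2544 CPM in the luminal layer and to 613, 586 and 644 in the blastocysts. Neither of these lists separated the tissues.

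The genes are placed on the mm10 build. *Fos* is at chr12:85473901-85477270, *Fosb* at chr7:19302696-19310045, *Fosl2* at chr5:32136472-32157839, *Jun* at chr4:95049036-95052222 and *Junb* at chr8:84976909-84978748. *Atf3* is at chr1:191170297-191183333, *Ier2* at chr8:84661331-84662852, *Ier3* at chr17:35821713-35822911 and *Ier5* at chr1:155096367-155099636. *Jun*, *Junb*, *Ier2* and *Ier5* are single-exon genes in the table. No exon of the 10 overlapped an exon of another counted gene, but GENCODE M21 places the antisense gene *Junos* within the span of *Jun*, and since the strand setting of the counting was not given in the sources used here, reads of the pair cannot be told apart.

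Upstream sequence is shown for 4 of the genes because *Fos* and *Junb* were called higher with rLif in the luminal layer while *Jun* was called lower against the control, and *Atf3* was called lower in the blastocysts. *Fosl2*, also called higher with rLif, and *Ier5*, also called lower in the blastocysts, are not shown. Each run is the 250 bases before the RefSeq transcription start (GRCm38.p6), written 5′ to 3′ on the strand of the gene. For *Junb* the bases after the window were not found in its GENCODE M21 transcripts, so its start site is less certain, although the window ends where the counted gene begins. Capitals mark the Sp1 letters GGGCGG on either strand, the element start TGACG on either strand and the TATA box TATAAA.
*Fos* upstream, chr12:85473640-85473889, + strand: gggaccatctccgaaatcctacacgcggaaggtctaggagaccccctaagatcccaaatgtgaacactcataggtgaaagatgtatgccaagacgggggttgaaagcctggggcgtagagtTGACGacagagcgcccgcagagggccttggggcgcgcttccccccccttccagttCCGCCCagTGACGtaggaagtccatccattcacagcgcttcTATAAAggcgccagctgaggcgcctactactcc
*Junb* upstream, chr8:84978749-84978998, - strand: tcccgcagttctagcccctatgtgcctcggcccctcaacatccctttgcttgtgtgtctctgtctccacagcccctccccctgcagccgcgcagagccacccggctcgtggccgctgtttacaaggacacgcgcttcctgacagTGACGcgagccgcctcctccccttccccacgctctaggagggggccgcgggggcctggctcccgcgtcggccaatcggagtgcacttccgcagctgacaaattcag
*Jun* upstream, chr4:95052223-95052472, - strand: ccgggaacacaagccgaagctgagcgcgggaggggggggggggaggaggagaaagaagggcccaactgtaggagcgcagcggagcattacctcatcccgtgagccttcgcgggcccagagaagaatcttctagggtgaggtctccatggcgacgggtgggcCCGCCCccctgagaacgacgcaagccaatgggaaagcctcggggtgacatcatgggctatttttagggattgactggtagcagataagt
*Atf3* upstream, chr1:191183334-191183583, - strand: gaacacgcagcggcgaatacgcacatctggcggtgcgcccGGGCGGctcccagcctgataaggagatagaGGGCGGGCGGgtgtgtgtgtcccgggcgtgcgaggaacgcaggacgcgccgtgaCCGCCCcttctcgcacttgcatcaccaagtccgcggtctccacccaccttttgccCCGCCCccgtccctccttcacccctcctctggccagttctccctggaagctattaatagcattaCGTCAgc

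RefSeq windows were found for 8 of the 10 genes, and for neither *Egr1* nor *Ier2*. GGGCGG, the letters bound by Sp1, was present in 7 of the 8 windows, all but that of *Junb*, against 32.7% of all 32841 upstream windows of the same length. TGACG, the first 5 letters of the cyclic AMP response element, was present in 4 of 8, namely *Fos*, *Fosb*, *Junb* and *Atf3*, against 17.8% of all windows, and was searched for after the sequences had been seen. The *Fos* window held it at bases -129 and -66, counted back from the start site, and was the only 1 of the 8 with TATAAA, against 12.4% of all windows. The complete element TGACGTCA, the AP-1 letters TGANTCA, the Stat letters TTCNNNGAA and the CArG box, the motif of serum response factor, had no match in any of the 8 windows, against 1.55%, 6.75%, 7.02% and 1.47% of all windows. Only 250 bases before each start were read. Sites farther upstream would not be seen, so the absence of a match does not show that a gene lacks the element. TGACG is part of TGACGTCA, both strands were read, and the windows of the 8 genes held between 54.4% and 68.8% G and C where the median of all windows was 52.4%.

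The 3′ untranslated regions were read for the letters ATTTA, the core of the AU-rich elements known from short-lived transcripts. They were present in the GENCODE M21 3′ UTR of 9 of the 10 genes, *Ier2* being the exception. The longer TATTTAT was present in the last 500 bases of 4 of the 9 genes with a 3′ UTR of that length, against 15.2% of 14283 genes, and ATTTA in 7 of 9, against 59.2%. Per kilobase of the whole 3′ UTR, *Ier2* at 0, *Fosb* at 0.43 and *Ier5* at 0.93 lay below the median of 1.35 over 19911 genes, and the other 7 above it. The 2 sites of *Fos* and *Ier3* below are 30 bases each, with ATTTA in capitals, and are shown because these genes held the most copies of ATTTA for their length among the 10 genes, at 4.91 and 8.16 per kilobase.
*Fos* 3′ UTR, chr12:85477103-85477132, + strand: tgttttcaATTTATTTAttaagatggattc
*Ier3* 3′ UTR, chr17:35822481-35822510, + strand: tgtctaattaatATTTAtgtATTTAtgtat

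In the luminal layer the order of levels was led by *Junb*, with a mean over the 3 libraries of 424 TPM (range 188 to 687). *Ier3* followed at 360 TPM (272 to 433), *Ier2* at 297 (203 to 381) and *Fos* at 133 (85.5 to 217), and each of these ranges overlapped the next. *Jun* at 41.0 TPM (19.0 to 65.8) lay below all libraries of *Fos* but overlapped *Fosl2* at 18.6, *Ier5* at 15.8 and *Egr1* at 13.5. *Atf3* at 3.87 TPM and *Fosb* at 0.55 were the lowest, each below every library of the gene before it. In the blastocysts *Ier2* led at 189 TPM (173 to 221), *Junb* followed at 95.4 (88.7 to 104), and the other 8 genes had means of 13.0 TPM or less, from *Jun* down to *Fosb* at 0.10. Neighbours in the order of these 8 overlapped between libraries, apart from *Fosb* (0 to 0.19 TPM), which lay below *Atf3* (0.24 to 2.99). The tables of the tissues were scaled separately, so these levels are set side by side without a test.

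The 10 genes together gave 1221 CPM in the luminal library labelled control, 974 in that labelled eKO and 2155 in that labelled eKO with rLif. The blastocyst libraries gave 294, 281 and 240 CPM in the same order. Per gene, the highest luminal library was a median 2.71 times the lowest, where the median over 12691 genes at or above the level of the lowest of the 10 was 1.63 times. In the blastocysts the medians were 1.77 times for the 10 genes and 1.30 times for 14194 genes. These 14194 genes also had no library at 0, whereas *Fosb* had 0 counts in the eKO library and counted as the widest spread of the 10. Without *Fosb* the median gene was *Ier3*, at 1.49 times.

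**Figure D1:**
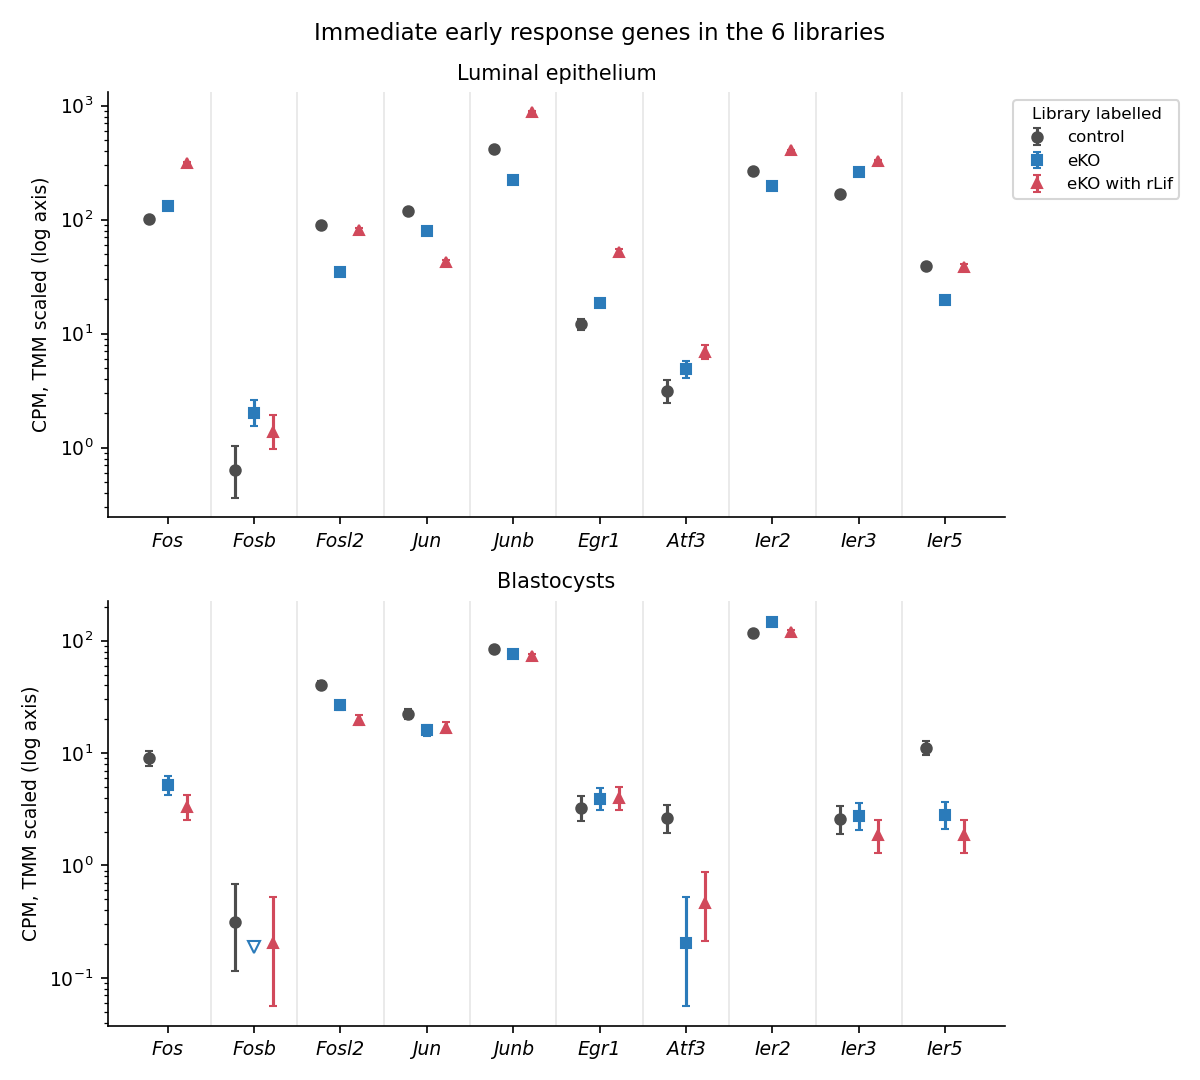
CPM on a log axis of each of the 10 genes in the 3 luminal libraries (top) and the 3 blastocyst libraries (bottom), with exact Poisson 95% intervals of each count. The open triangle is the upper limit of *Fosb* in the blastocyst eKO library, where it had 0 counts, and *Junb*, *Fos* and *Egr1* were highest in the luminal library labelled eKO with rLif.

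The first comparison set the luminal library labelled eKO against that labelled control. A gene was called higher or lower when the exact 95% interval of the ratio of its counts in 2 libraries lay wholly beyond a 2-fold difference, a log2 ratio of 1 or -1. None of the 10 genes was called higher and only *Fosl2* was called lower, against 8.08% of all genes called higher and 9.15% called lower, so the 10 genes were called about as often as genes at large. Of the ratios 5 were above 0 and 5 below 0, with a median of -0.04 beside 0.0038 for all genes tested.

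*Fosl2* encodes Fra-2, a Fos protein without the strong transactivation domain of Fos. It stood at 89.0 CPM in the control, 34.6 in the eKO library and 81.5 in the eKO with rLif. The eKO library was low and the other two were close, although their intervals did not overlap. The log2 ratio was -1.36 (95% interval -1.47 to -1.26) for the eKO against the control and 1.24 (1.13 to 1.35) for the rLif library against the eKO, called in both, and -0.13 (-0.21 to -0.04) between rLif and the control.

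*Ier5*, which encodes a regulator of heat shock factor activity, followed the same order at 39.2, 19.7 and 38.6 CPM. Its log2 ratios of -0.99 (-1.14 to -0.84) for eKO against control and 0.97 (0.82 to 1.12) for rLif against eKO reached across the 2-fold limit and were not called. Control and rLif libraries were not distinguishable by counting error for this gene, at a log2 ratio of -0.02 (-0.15 to 0.11).

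*Junb* encodes a Jun protein and is a known target gene of Stat3. It measured 418 CPM in the control, 223 in the eKO and 881 in the eKO with rLif, and no intervals overlapped. The eKO library was lowest by a log2 ratio of -0.91 (-0.95 to -0.86), not called, and the rLif library was above the eKO by 1.99 (1.95 to 2.03), the widest difference of the 10 genes in that comparison. *Junb* thereby ranked 246 by TPM among the 23420 genes of the rLif library, compared with 925 in the eKO library.

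*Ier2*, a nuclear protein of growth factor responses, had the same order of libraries as *Junb* with smaller differences, at 267, 199 and 405 CPM. The log2 ratio was -0.43 (-0.48 to -0.38) for the eKO against the control and 1.03 (0.98 to 1.07) for rLif against eKO. Neither was called, since the latter interval began below the limit.

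In the second comparison, rLif against PBS in females labelled eKO, *Fos*, *Fosl2*, *Junb* and *Egr1* were called higher in the library labelled eKO with rLif than in that labelled eKO, and none was called lower. This was 4 of 10 genes, where 7.88% of all genes were called higher and 7.77% lower. The median ratio of the 10 genes was 1.00 on the log2 scale, beside -0.0078 for all genes tested, and 8 of the 10 ratios were above 0.

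*Fos*, the founding partner of AP-1, measured 102 CPM in the control, 131 in the eKO and 317 in the eKO with rLif. The intervals of the 3 libraries did not overlap. The rLif library exceeded the eKO by a log2 ratio of 1.27 (1.22 to 1.33) and the control by 1.63 (1.57 to 1.69), both called, while eKO exceeded the control by 0.36 (0.28 to 0.43), not called.

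*Egr1* encodes a zinc finger factor that serum and growth factors induce through the mitogen-activated protein kinases, and lies at chr18:34861207-34864956. It measured 12.0 CPM in the control, 18.5 in the eKO and 52.2 in the eKO with rLif, again without overlap. The log2 ratio was 1.49 (1.35 to 1.64) for rLif against eKO and 2.11 (1.93 to 2.30) for rLif against control, the largest of the 10 genes in that comparison.

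*Atf3*, a stress-responsive factor of the ATF family, and *Ier3*, which encodes a survival protein, had the same order of libraries as *Fos*. *Atf3* was low throughout, at 3.13, 4.87 and 6.91 CPM from 79, 140 and 180 counts, and its ratio of rLif to eKO was 0.50 (0.18 to 0.83). *Ier3* measured 169, 263 and 329 CPM, with a log2 ratio of 0.33 (0.28 to 0.37) for rLif against eKO and 0.63 (0.58 to 0.69) for eKO against control. Neither gene was called in any luminal comparison, although every one of these intervals lay above 0.

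*Jun*, the gene of the principal DNA-binding partner of Fos, went in the opposite order to *Fos*. It measured 120 CPM in the control, 78.8 in the eKO and 42.1 in the eKO with rLif, the lowest of the 3. Its log2 ratio was -0.61 (-0.68 to -0.53) for eKO against control and -0.90 (-1.01 to -0.80) for rLif against eKO, neither called.

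*Fosb*, the fourth gene of the Fos family, was scarce, with 16, 58 and 36 counts or 0.63, 2.02 and 1.38 CPM. The control was the lowest library, but the interval of the rLif library overlapped those of both others. Its log2 ratio of 1.67 (0.85 to 2.57) for eKO against control was the highest of the 10 genes in that comparison but was not called.

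In the third comparison, the rLif library against the control, *Fos*, *Junb* and *Egr1* were called higher and *Jun* lower, where 4.12% of all genes were called higher and 5.04% lower. The ratio of *Jun* was -1.51 (-1.61 to -1.41) and that of *Junb* 1.08 (1.04 to 1.11). Scaling on library totals shifted every ratio of this comparison by -0.18, which left *Junb* uncalled at 2 genes higher. The rLif library lay above both others for *Fos*, *Junb*, *Egr1*, *Atf3*, *Ier2* and *Ier3*, between them for *Fosb*, *Fosl2* and *Ier5*, and below both for *Jun*. The 3 comparisons of a tissue share their libraries and are not independent of each other.

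**Figure D2:**
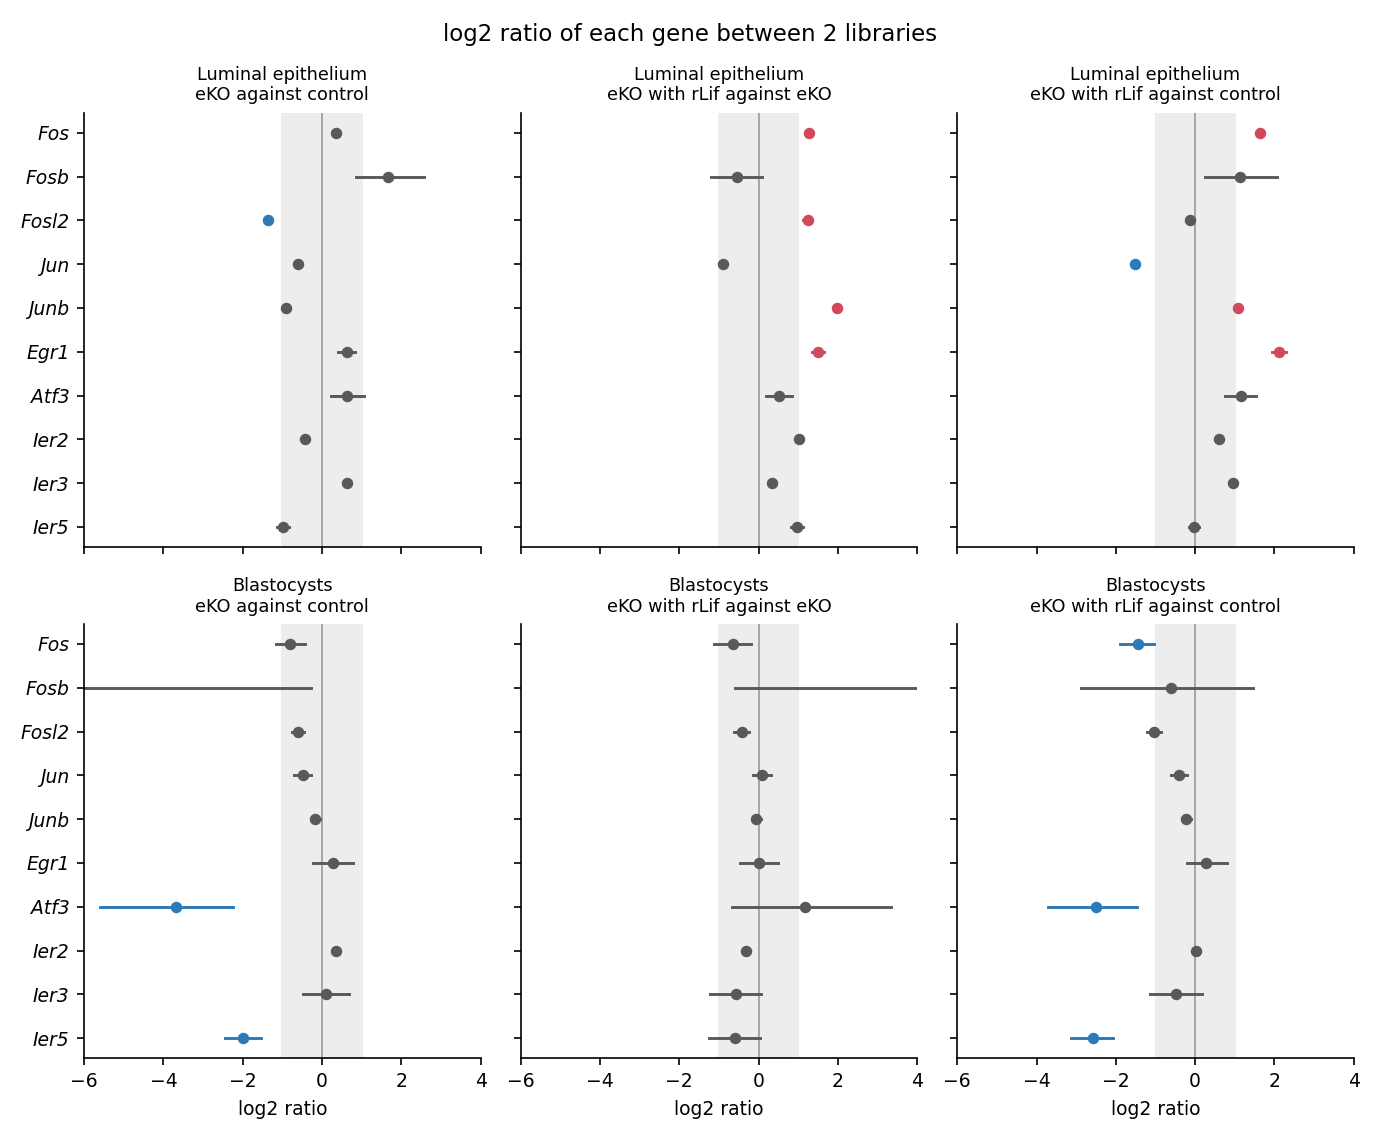
log2 ratio of the 10 genes (points) with exact 95% intervals (lines) for the 3 comparisons in luminal epithelium (top) and blastocysts (bottom). Red marks genes called higher, blue genes called lower and grey genes not called, the shaded band spans a 2-fold difference either way, *Fosb* has no point where a library had 0 counts, and its lines there are cut at the axis.

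The members of each family were then set against each other per exon length within a library, where scaling between libraries has no part, a description chosen after the values were seen. *Junb* exceeded *Jun* 6.04 times (5.80 to 6.29) in the luminal control, 4.90 times (4.67 to 5.14) in the eKO and 36.2 times (34.1 to 38.5) in the eKO with rLif. The rLif library thus stood apart from the other two, which differed less from each other. In the blastocysts the ratio was 6.58, 8.22 and 7.51 times. The third Jun gene, *Jund*, which is expressed without a stimulus in most cells, made up 43.6%, 57.9% and 38.5% of the luminal Jun family TPM, while *Junb* made up 48.4%, 35.0% and 59.8% and *Jun* 8.01%, 7.15% and 1.65%.

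Within the Fos family *Fos* made up 76.0% of TPM in the luminal control, 90.7% in the eKO and 90.9% in the eKO with rLif. *Fosl2* made up 23.6%, 8.54% and 8.35%. *Fosl2* was the leading Fos gene in the blastocysts, at 59.2%, 64.8% and 67.4%. *Fosl1*, the gene of Fra-1, had 2, 1 and 39 luminal counts, an exon of which overlaps *Ccdc85b* on the other strand.

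**Figure D3:**
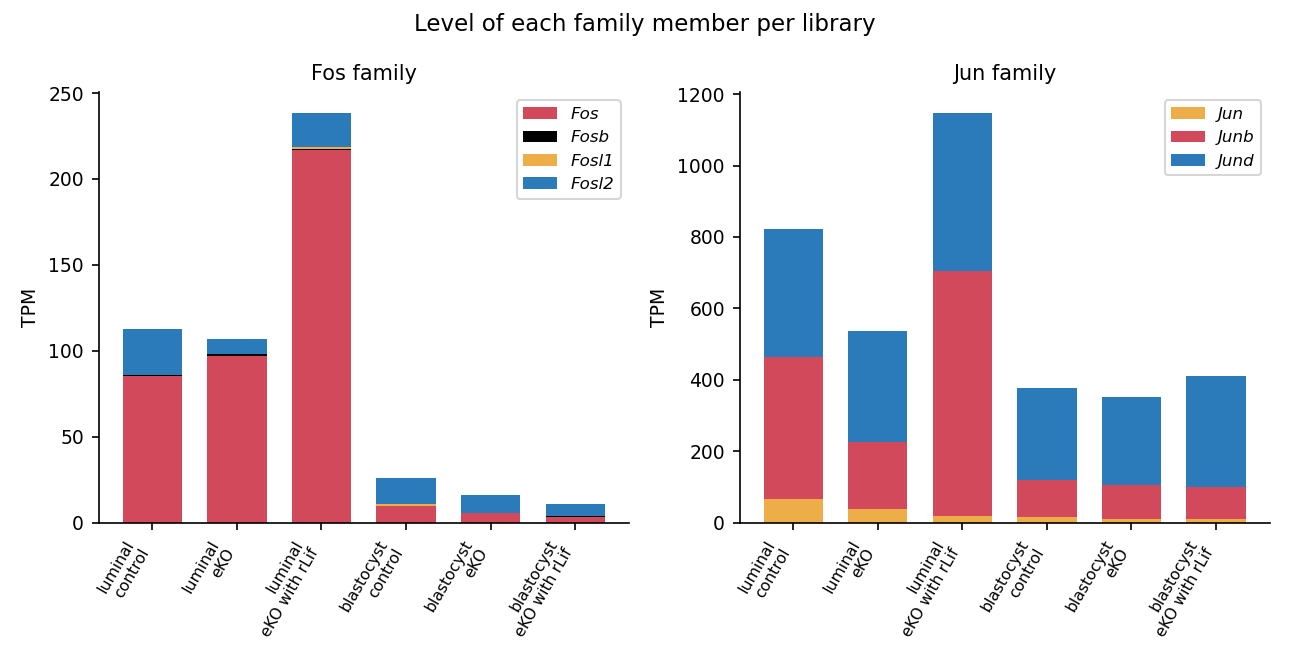
TPM of the Fos family (left) and the Jun family (right) stacked by gene in each of the 6 libraries. *Junb* makes up 59.8% of the Jun family in the luminal library labelled eKO with rLif against 35.0% in that labelled eKO, and *Fosl2* is the larger share of the Fos family in blastocysts only.

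Markers of other cells differed between the luminal libraries, and whether fewer cells of a type or less RNA per cell was collected cannot be told apart in bulk samples. The 6 endothelial markers, all detected, summed to 47.9, 69.4 and 94.1 CPM in the order control, eKO and eKO with rLif, which is the order of *Fos*, *Egr1*, *Atf3* and *Ier3*. The 6 smooth muscle markers, also all detected, summed to 70.4, 50.5 and 31.4 CPM, the order of *Jun*, and the 8 stromal markers to 726, 1140 and 780 CPM, highest in the eKO library as was *Fosb*. Of the 6 gland markers measured, 5, 5 and 6 were detected at a sum of 17.4, 17.3 and 35.7 CPM. The 6 immune markers measured summed to 815, 681 and 649 CPM, again the order of *Jun*. The part of these cells in the values of the 10 genes was not tested.

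*Stat3*, the transcription factor that Lif activates, measured 228, 112 and 300 CPM in the luminal libraries, the order of *Junb* and *Ier2*. *Lifr*, the receptor, measured 212, 50.9 and 175 CPM, the order of *Fosl2* and *Ier5*.

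In the blastocysts the comparison of embryos from *Lif* eKO and control uteri asked whether genes of the embryo differ with the genotype of the mother. *Atf3* and *Ier5* were called lower and none of the 10 genes was called higher, where 1.86% of all genes were called lower and 1.29% higher. The median ratio was -0.55 with *Fosb* set at its limit, beside -0.0032 for all genes tested, and 7 of 10 ratios were below 0.

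*Ier5* measured 11.1 CPM in blastocysts from control uteri, 2.81 from eKO uteri and 1.85 from rLif-treated eKO uteri. The control library stood above the other two, which overlapped. The log2 ratio was -1.98 (-2.44 to -1.55) for eKO against control, -2.59 (-3.14 to -2.07) for rLif against control and -0.60 (-1.25 to 0.03) for rLif against eKO, called in the first 2.

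*Atf3* rested on few reads, with 50, 4 and 9 counts or 2.62, 0.20 and 0.46 CPM. The control was again the high library and the other two overlapped. The log2 ratio was -3.68 (-5.61 to -2.23) for eKO against control and -2.50 (-3.71 to -1.46) for rLif against control, both called.

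*Fos* had its libraries in descending order at 9.02, 5.17 and 3.29 CPM from 172, 101 and 64 counts. Its log2 ratio was -0.80 (-1.17 to -0.44) for eKO against control and -1.45 (-1.89 to -1.03) for rLif against control, of which only the latter was called. *Fosl2* had the order of *Fos* at 40.5, 26.6 and 19.8 CPM. Its ratio of -1.04 (-1.22 to -0.86) for rLif against control was not called, because the interval reached across the limit.

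The blastocysts of rLif-treated against untreated eKO uteri gave no call among the 10 genes, where 0.914% of all genes were called higher and 2.83% lower. The median ratio was -0.19, beside -0.0080 for all genes tested. *Fos* at -0.65 (-1.13 to -0.18), *Fosl2* at -0.43 (-0.62 to -0.24) and *Ier2* at -0.32 (-0.40 to -0.24) had intervals below 0, and no gene had an interval above 0. Against the control, rLif blastocysts had 3 of the 10 genes called lower, *Fos*, *Atf3* and *Ier5*, and 0 called higher, where 3.99% and 0.948% of all genes were called, with a median of -0.54 beside -0.0081.

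None of the other 6 genes was called in any blastocyst comparison. *Junb* measured 84.9, 75.7 and 72.9 CPM, *Jun* 22.3, 16.0 and 16.8, and *Ier2* 117, 148 and 118. *Ier2* was thus highest in the eKO library, by a log2 ratio of 0.34 (0.26 to 0.42) over the control. *Egr1* measured 3.25, 3.94 and 3.96 CPM and *Ier3* 2.57, 2.76 and 1.85, and no interval of their ratios excluded 0. *Fosb* had 6, 0 and 4 counts, and the 95% interval of its log2 ratio for eKO against control lay below -0.27.

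Of the 6 gland markers measured, 5, 2 and 2 were detected in the blastocyst libraries, at a sum of 6.82, 3.53 and 1.44 CPM, the order of *Ier5*, *Fos*, *Fosl2* and *Junb*. The 6 immune markers measured summed to 58.2, 118 and 20.1 CPM, highest in the eKO library, as was *Ier2*. Their part in these values was not tested.

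Lists of related genes were read in the luminal libraries by the same rule. The shares of all genes to set beside every list were 8.08% called higher and 9.15% lower for eKO against control. For rLif against eKO they were 7.88% higher and 7.77% lower. In lists of 11 to 20 genes tested, 1 call in a direction lies near these shares. AP-1 partners and repressors outside the 10 genes had 1 of 14 called higher and 2 lower for eKO against control, and 3 higher and 1 lower for rLif against eKO, with medians of 0.12 and 0.54. *Maff*, a small Maf protein that pairs with AP-1 factors, had 564, 144 and 628 counts, again with the control first and the rLif library last, and ratios of -2.16 for the first contrast and 2.27 for the second, and *Mafk* had 1337, 488 and 945, a ratio of -1.64 and then 1.09, the latter not called. *Jdp2*, a repressor that pairs with Jun proteins, ran the other way at 1176, 3812 and 482 counts, with ratios of 1.51 and then -2.84. *Batf3*, from 38, 16 and 70 counts, was called only in the second comparison, at 2.27.

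Other immediate early transcription factors had 4 of 14 called higher and 3 lower for eKO against control, with a median of -0.77, and 1 higher and 0 lower for rLif against eKO, with a median of 0.51. *Myc* had 4626, 1683 and 3056 counts and *Ier5l*, a relative of *Ier5*, 675, 245 and 838, with ratios of -1.64 and -1.65 for eKO against control. *Ier5l* was called higher with rLif at 1.92 and *Myc* at 1.00 was not. *Egr2*, a relative of *Egr1*, had 4, 35 and 70 counts and was called higher in the eKO than in the control at 2.94. *Nr4a3*, an orphan nuclear receptor, had 5, 33 and 17 counts, with a ratio of 2.54 for eKO against control.

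Feedback regulators of the early response, many of which degrade transcripts or remove phosphate from kinases, had 2 of 20 called higher and 4 lower for eKO against control, with a median of -0.55. With rLif against eKO 10 of 20 were called higher and 0 lower, with a median of 1.08, the highest share called higher among the 7 lists read in that comparison. *Gadd45a*, a growth arrest gene that overlaps *E230016M11Rik* on the other strand, had 5116, 723 and 8946 counts, a ratio of -3.01 and then 3.77. *Zfp36*, which binds AU-rich elements of the kind shown above and promotes decay of the transcript, had 3155, 1812 and 5902 counts and was called only with rLif, at 1.85. *Dusp4*, a kinase phosphatase, had 33, 2 and 69 counts, with ratios of -4.23 and then 5.25, while *Gadd45b* at 1516, 359 and 265 counts was called lower in the eKO at -2.26 and differed by -0.30 between rLif and eKO, not called.

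Secreted and cytoskeletal early genes had 1 of 16 called higher and 7 lower for eKO against control, and 7 higher and 1 lower for rLif against eKO, with medians of -0.90 and 0.87. *Areg*, an EGF receptor ligand, had 1067, 236 and 7232 counts, a ratio of -2.36 and then 5.08, and *Cyr61*, a matricellular protein, 2223, 312 and 6368 counts, -3.02 and then 4.49. *Ereg*, another ligand, had 26, 0 and 112 counts, and the 95% interval of its log2 ratio for rLif against eKO lay above 5.04. *Sgk1*, a kinase of ion transport, was called lower with rLif at -2.21, from 2961, 5146 and 1006 counts.

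The upstream kinases and their SRF or CREB factors had 1 of 18 called higher and 1 lower for eKO against control, and 1 higher and 0 lower for rLif against eKO, near the shares of all genes. *Crem*, a CREB relative, had 1436, 2549 and 5815 counts and was called higher with rLif at 1.33, *Creb5* at 34, 174 and 111 counts was called higher in the eKO at 2.17, and *Rps6ka1* at 1205, 612 and 757 counts was called lower there at -1.16. AP-1 target genes had 2 of 11 called higher and 3 lower for eKO against control, and 3 higher and 2 lower for rLif against eKO, with medians of -0.99 and -0.10. *Fosl1* stands in this list and among the AP-1 partners, so its call with rLif is counted in both. The named targets did not share a direction. *Timp1*, with 612, 128 and 2112 counts, and *Hmox1*, with 1416, 357 and 1947, were called lower in the eKO and higher with rLif, *Cd44* at 648, 1956 and 689 counts the reverse, and *Plaur* at 316, 57 and 96 counts only lower in the eKO.

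Heat shock and stress genes had 0 of 15 called higher and 1 lower for eKO against control, and 1 higher and 3 lower for rLif against eKO. Their summed level was 7224, 6532 and 5441 CPM, lowest in the library where the 10 immediate early genes were highest. *Hspa1b* had 1380, 2572 and 759 counts and *Hsph1*, its exchange factor, 2144, 4853 and 1450, with ratios of -1.62 and -1.60 for rLif against eKO. *Hspa1a*, at 348, 566 and 148 counts, is a near-identical copy of *Hspa1b*, and reads may be split between them. *Trib3*, a stress kinase relative, had 742, 47 and 903 counts, with ratios of -4.17 and then 4.41.

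**Figure D4:**
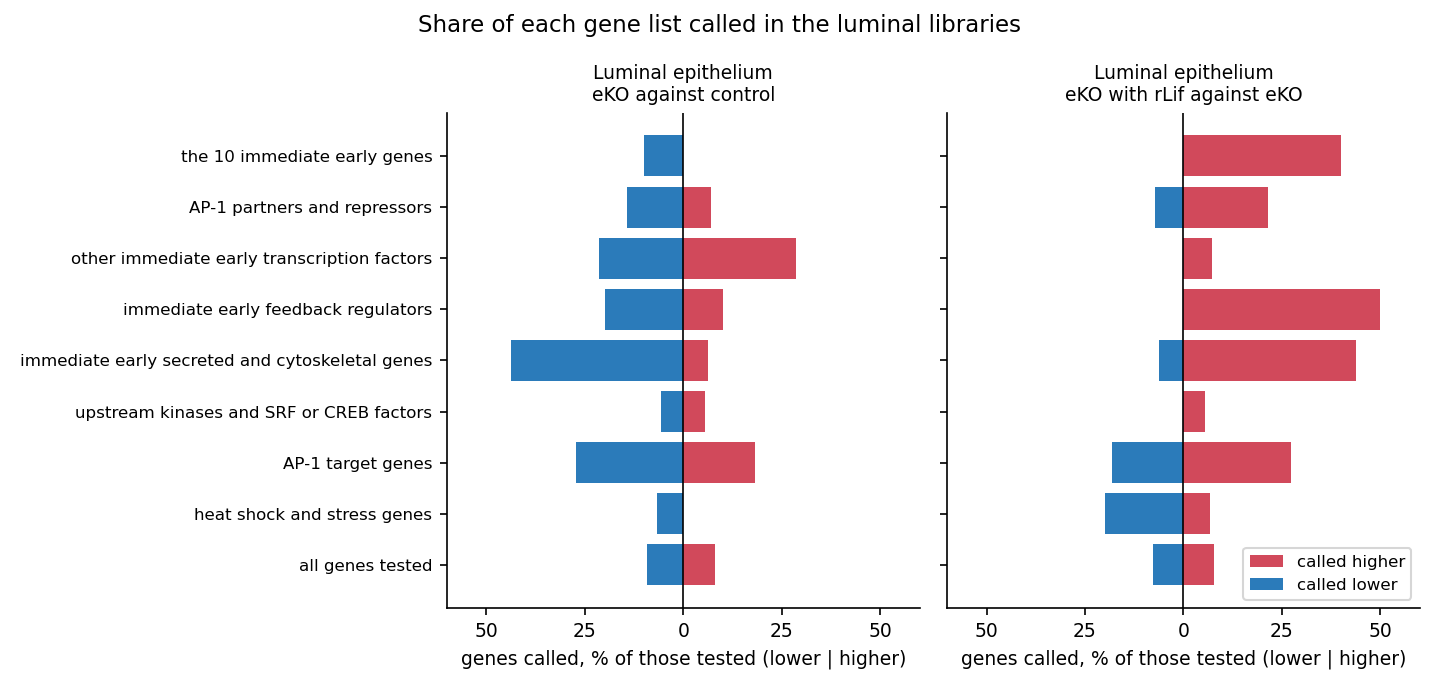
Share of each gene list called higher (red, to the right) or lower (blue, to the left) in 2 luminal comparisons, in percent of the genes tested. The 10 immediate early genes had 4 called higher with rLif and the feedback regulators 10 of 20, where 7.88% of all genes were called higher.

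The genes whose pattern lay closest to *Fos* were sought over its 4 log2 ratios against the control, 2 in each tissue, among 11330 genes with at least 50 counts in each tissue. The nearest were *Ret*, a receptor tyrosine kinase, *Tmem47*, *Flrt3*, *Rps19-ps3* and *Armcx1*, at Euclidean distances of 0.56 to 0.79. *Ret* had 273, 549 and 781 luminal counts and 81, 57 and 31 blastocyst counts, higher in the eKO and rLif libraries of the lumen and lower in those of the embryo, as *Fos* was. Since *Ret* was picked by nearness in these 4 ratios, the shared directions follow from the choice. *Rps19-ps3* is a pseudogene, and some of its reads may come from its parent gene, which was not tested. Among the immediate early genes compared, *Ier3* ranked 197 and *Junb* 1241 by this distance, and *Jun*, at 10277, was the farthest. *Fosb*, with 6, 0 and 4 blastocyst counts, fell below the minimum and was not ranked.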

How the data were processed

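RNA was measured by RNA-seq in 6 libraries, 1 per group. As the authors describe, RNA was amplified with the SMART-seq v4 kit, reads were aligned with HISAT2 to the mouse genome (GRCm38/mm10) and counted per gene with featureCounts (Subread 2.0.0). The annotation release and the strand and multimapping settings were not given in the sources used here. The deposited values are whole-number counts per gene, although the methods name RPKM, and were used as counts. No read was mapped again.

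CPM used TMM library sizes (edgeR 4.0.16), with exact Poisson 95% intervals. TPM used the exon length in the deposited tables. With 1 library per group no test of conditions is possible and no p-value is given. A gene was called when the exact Clopper-Pearson 95% interval of its ratio between 2 libraries (SciPy 1.17.1) lay beyond a log2 ratio of 1 or -1, among genes with at least 10 counts over the 3 libraries of a tissue. The rule compares 2 libraries, not conditions, and leaves out the spread between samples. On simulated data it made almost no false calls when the libraries differed by counting error alone, and many when a spread between samples was added. Amplified reads without molecular identifiers are not independent molecules. A count of 0 was set at 3 counts where a limit was needed.

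The alternatives were library totals, totals without the 20 most abundant genes, upper quartile and DESeq2 1.42.0 scaling, minima of 1 and 50 counts, log2 limits of 0, 0.5 and 2, and the edgeR exact test with an assumed dispersion of 0.1 or 0.2. The 10 genes, the 7 lists of related genes and the marker lists were chosen with earlier results of these data known. From each list the text names up to 4 genes called in either of the first 2 luminal comparisons, with at least 50 counts, by size of ratio. The 5 genes nearest to *Fos* were named by distance, with a pseudocount of 0.5 counts. *Jund*, *Fosl1* and the ratio of *Junb* to *Jun* were added after their values were seen. Promoter windows came from RefSeq (GRCm38.p6) and 3′ UTRs from GENCODE M21, with the longest 3′ UTR per gene.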

Additional observations from a re-analysis of the deposited data

Results flagged for a closer look

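In 10 cases the luminal and the blastocyst libraries gave intervals on opposite sides of 0 for the same gene and the same contrast. The difference between the tissues was not tested, since each group was 1 library. The differences below are the luminal log2 ratio minus the blastocyst log2 ratio.

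*Fos* was flagged in all 3 contrasts, higher in the luminal and lower in the blastocyst library each time. The difference was 1.16 for eKO against control (luminal 0.36, blastocyst -0.80), 1.92 for eKO with rLif against eKO (1.27 and -0.65) and 3.08 for eKO with rLif against control (1.63 and -1.45). *Atf3* had the same directions against the control, with differences of 4.32 for the eKO (0.64 and -3.68) and 3.65 for the eKO with rLif (1.14 and -2.50), both resting on 50, 4 and 9 blastocyst counts.

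*Fosb* differed by 2.71 for eKO against control, with the blastocyst eKO library at 0 counts and set at 3. *Fosl2* differed by 1.67 for eKO with rLif against eKO (1.24 and -0.43), and *Junb* by 1.30 for eKO with rLif against control (1.08 and -0.22). *Ier2* differed by 1.35 for eKO with rLif against eKO (1.03 and -0.32). It was the only gene flagged with the lower value in the luminal layer, at -0.77 for eKO against control (-0.43 and 0.34).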

How the results depend on the processing

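Another scaling or minimum count changed 1 call of the 10 genes: *Junb* was not called in the luminal library labelled eKO with rLif against control with library totals or with totals without the 20 most abundant genes, leaving 2 genes higher. These scalings shifted every luminal log2 ratio by up to -0.18, and moved the median of the 10 genes to 0.89 and 0.87 for eKO with rLif against eKO and to 0.84 and 0.88 for eKO with rLif against control. The median for blastocysts of eKO with rLif against eKO moved to -0.32 when *Fosb*, under 50 counts, was left out. Of the ratios of single genes under these alternatives, 322 stayed within their counting interval and 35 moved beyond it, and no called ratio changed sign.

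The number of genes called depended on the limit, in the order of the luminal contrasts eKO against control, eKO with rLif against eKO and eKO with rLif against control. With a log2 limit of 0, 5, 8 and 7 genes were higher (37.2%, 36% and 34% of all genes) and 5, 1 and 2 lower (37.5%, 35.4% and 32.2%). With a limit of 0.5, 2, 6 and 6 were higher (17.9%, 15.3% and 11.8%) and 4, 1 and 1 lower (18%, 15.8% and 11.7%). With a limit of 2, none was called higher (2.2%, 3.01% and 0.733%) or lower (3.33%, 1.77% and 1.15%). In the blastocysts a limit of 0 gave 1, 0 and 0 higher (22.8%, 25.2% and 26.2% of all genes) and 7, 3 and 6 lower (22%, 27.4% and 26.7%). A limit of 0.5 gave 0, 0 and 0 higher (3.23%, 3.1% and 2.94%) and 2, 0 and 4 lower (4.13%, 7.16% and 8.18%). A limit of 2 gave 0, 0 and 0 higher (0.215%, 0.0538% and 0.0874%) and 1, 0 and 1 lower (0.457%, 0.572% and 0.914%).

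The edgeR exact test, for which a dispersion had to be assumed, called only *Junb* and *Atf3* at 0.1, 1 gene each. *Junb* was higher for luminal eKO with rLif against eKO, where 4.04% of all genes were called higher. *Atf3* was lower for blastocyst eKO against control, where 0.303% were called lower. It called 0 in all other contrasts, where at most 4.54% of all genes were called in a direction. At 0.2 it called 0 of the 10 in every contrast, where at most 1.57% of all genes were called in a direction. Depth limits *Fosb* in both tissues and *Atf3*, *Ier3* and *Egr1* in the blastocysts, which had 77 counts or fewer per library there. *Ier5* had 55 and 36 counts in the blastocyst libraries of eKO and eKO with rLif. *Fos* had 64 in that of eKO with rLif, so calls of these genes also rest on few reads.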

Other observations

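The lists of genes related to the immediate early genes were also read in the blastocysts. For eKO against control, 0 of 20 feedback regulators and 0 of 12 other immediate early transcription factors were called, and 1 gene each was called lower among 14 AP-1 partners, 13 secreted and cytoskeletal genes and 11 AP-1 targets, where 1.86% of all genes were called lower. The call among the partners and that among the targets were the same gene, *Fosl1*, with 12, 0 and 0 counts. For eKO with rLif against control, 4 of 20 feedback regulators were called lower and 0 higher, where 3.99% and 0.948% of all genes were, with a median log2 ratio of -0.47 beside -0.0081 for all genes tested. The kinases and SRF or CREB factors had 0 of 18 called in either of these comparisons.

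Among the heat shock genes, *Hspa1b* had 200, 285 and 80 blastocyst counts in the order control, eKO and eKO with rLif, and *Hspa1a* 46, 52 and 8. Both were called lower for eKO with rLif against eKO, at -1.82 and -2.69, as they were in the luminal libraries, and reads of these near-identical copies may be split between them. *Hmox1*, a heme oxygenase, had 1992, 1281 and 737 counts and was called lower for eKO with rLif against control at -1.46. *Myc* had 4756, 2961 and 3227 counts, with a log2 ratio of -0.72 (-0.79 to -0.65) for eKO against control, not called.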
